A study of Mus musculus with 17 samples.

Results

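The 10 autosomal genes described here encode factors linked to the silencing of unsynapsed chromatin in meiosis: Atr, Atrip, Topbp1, Mdc1, H2afx, Brca1, Bard1, Hormad2, Rnf8 and Setdb1. They were chosen by name for that link, with earlier results of these data known. The choice was made out of 20807 autosomal protein-coding genes in the GENCODE M21 annotation of the mouse genome build mm10 (GRCm38). For each gene, the positions of the histone variant H3.3 were read from a list of H3.3 peaks of Arid1a WT and a list of Arid1a cKO pachytene spermatocytes. A gene was counted as having an H3.3 region where listed peaks lay within 1 kb of one of its transcript starts or inside the gene.

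In males, most of the X and Y chromosomes has no homologous partner to synapse with, and these chromosomes are silenced in pachynema, a process called meiotic sex chromosome inactivation. HORMAD proteins mark unsynapsed chromosome axes, and BRCA1 with its partner BARD1 promotes loading of the kinase ATR, which works with ATRIP and the activator TOPBP1. ATR phosphorylates the histone variant H2AX, and MDC1 binds the phosphorylated form and carries the mark from the axis into the chromatin loops. RNF8 adds ubiquitin to chromatin after MDC1, and SETDB1 trimethylates lysine 9 of histone H3 on the silenced chromosomes. The genes for these proteins lie on autosomes, so the values below concern H3.3 at the genes themselves and not at the chromosomes their products act on.

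H3.3 was mapped by CUT&RUN, in which an antibody tethers a nuclease to its target so that the cut fragments can be sequenced. Cells came from pooled testes of adult males on a CD1 background and were enriched as pachytene spermatocytes by sedimentation through a Sta-Put gradient. Arid1acKO males carried 2 floxed Arid1a alleles and a Stra8-Cre transgene, which is active from spermatogonia onward, whereas Arid1aWT males carried 1 or 2 floxed alleles and no Cre. The series holds 17 libraries, of which 5 were made with the H3.3 antibody (2 Arid1a WT, 3 Arid1a cKO) and 12 with an ARID1A antibody, the latter not analysed here. ARID1A belongs to the chromatin remodeling complex BAF. By the study's account, excision by Stra8-Cre was incomplete, and some cells of Arid1a cKO testes, called escapers, keep ARID1A. The study also reports that cells without ARID1A arrest in mid-pachynema. Whether the cells of both genotypes came from the same substages of pachynema was not tested. The lists hold no expression values, so the labelled cell type could not be checked against marker genes.

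Each genotype was represented by 1 list, in which the peaks of its libraries had been combined. Differences between the genotypes therefore have no replicate error and no test, and the depth of the libraries is unknown. Merging overlapping rows turned the 12183 rows of the Arid1a cKO list into 6552 regions, 6179 of them autosomal. For Arid1a WT there were 228 rows and as many regions, 4 of them autosomal. A list holds only what passed the peak caller's threshold. The lowest -log10 q was 1.35 in the Arid1a cKO list and 2.20 in the Arid1a WT list, so a gene without a region may carry H3.3 below these limits. The difference in the number of listed regions stands beside every comparison of the genotypes below, and its part in them was not tested.

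In Arid1a cKO, 2 of the 10 genes had an H3.3 region, Bard1 and Rnf8. Both regions lay at a transcript start. In Arid1a WT, 0 of the 10 genes had one. The count of 2 of 10 is a share of 20%, with a 95% Wilson interval of 5.67 to 51.0% that covers counting error only. Over all autosomal protein-coding genes, the Arid1a cKO share was 30.9% (6436 genes, 95% Wilson interval 30.3 to 31.6%), and 29.5% had a region within 1 kb of a start. The share for the 10 genes was below this background, and its interval contained it. In the Arid1a WT list the background was 0.00961%, or 2 of 20807 genes, so a count of 0 among 10 genes is near the background.

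**Figure D1:**
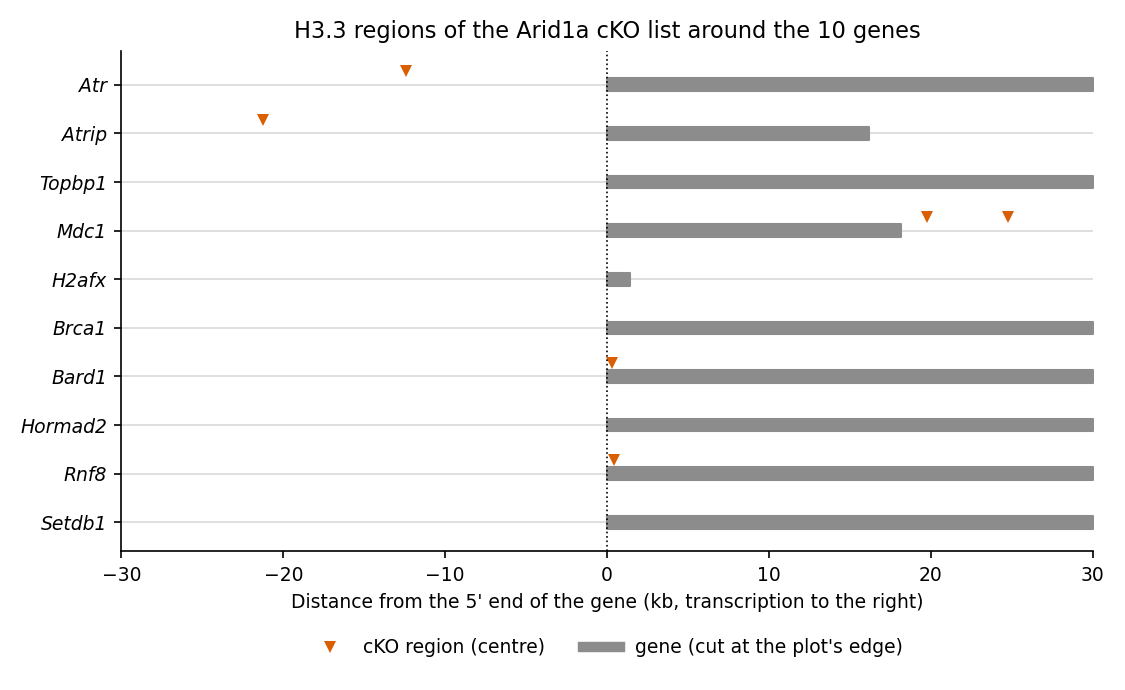
Map of the 10 genes, drawn from each gene's 5′ end with transcription to the right (x axis, kb). Grey bars are the genes and orange triangles the centres of Arid1a cKO regions. Bard1 and Rnf8 have a triangle at their 5′ end, Atr, Atrip and Mdc1 have 1 or 2 triangles outside the gene, and no Arid1a WT region falls within 30 kb on either side.

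The region at Bard1 is shown first, since it has the higher fold of the pair. It is written 5′ to 3′ on the strand of the gene, from mm10, with each CpG in capitals. The 143 bases outside the annotated untranslated part are given (chr1:71102665-71102807, minus strand). They begin at the start codon.
Bard1 region: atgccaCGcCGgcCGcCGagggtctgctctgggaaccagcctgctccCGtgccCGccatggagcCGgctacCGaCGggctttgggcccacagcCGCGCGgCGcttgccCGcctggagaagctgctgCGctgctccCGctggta
The printed bases held 16 CpG sites and 73.4% G and C.

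Bard1 (ENSMUSG00000026196.7, chr1:71027498-71103146, minus strand) encodes the RING-domain partner that stabilises BRCA1 and forms a ubiquitin ligase with it. Its region spanned chr1:71102665-71102992, a width of 328 bp. The Arid1a cKO list wrote it as 2 identical rows, each with a fold enrichment of 3.94 over the IgG control, a -log10 p of 6.24 and a -log10 q of 3.06. By fold, these rows ranked 6333 of 12183, and the region ranked 3137 of 6179 autosomal regions. The fold of 49.2% of autosomal regions was lower, and 32.5% of them were narrower. The Bard1 region was thus near the middle of the list in height and below the middle in width, where the median autosomal region had a fold of 3.95 and a width of 420 bp.

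The Bard1 region lay downstream of the start, from 154 to 481 bp into the gene, with its centre at 318 bp. It covered 325 bases of exon 1, of which 185 are annotated as 5′ untranslated and 140 as coding, and 3 bases of the first intron. The gene has 1 annotated transcript, and no other gene starts within 1 kb of the region. The region of Bard1 can thus be assigned to a single annotated start.

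Rnf8 (ENSMUSG00000090083.11, chr17:29614790-29644991, plus strand) encodes the ubiquitin ligase that binds phosphorylated MDC1. Its region was 248 bp wide and was also written as 2 identical rows. Each row had a fold of 3.65, a -log10 p of 6.88 and a -log10 q of 3.54. These rows ranked 7632 of 12183 by fold, and the region ranked 3783 of 6179 autosomal regions. The fold of 38.8% of autosomal regions was lower and 15.5% were narrower, so the Rnf8 region was lower and narrower than that of Bard1 while its -log10 q was higher.

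The Rnf8 region ran from 299 to 546 bp downstream of the gene's 5′ end. Rnf8 has 12 transcripts with as many different starts, and the centre of the region was 422 bp from the most upstream start and 244 bp from the nearest, that of Rnf8-210. All 248 bases are exonic and coding in the transcript Rnf8-211, and they fall in intron 1 of transcripts such as Rnf8-201. Starts of 2 further genes lie within 1 kb of the region. These are AC163629.1, a noncoding RNA transcribed from the opposite strand, and Gm28043, a readthrough gene on the strand of Rnf8. The region of Rnf8 is therefore shared among annotated genes.

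**Figure D2:**
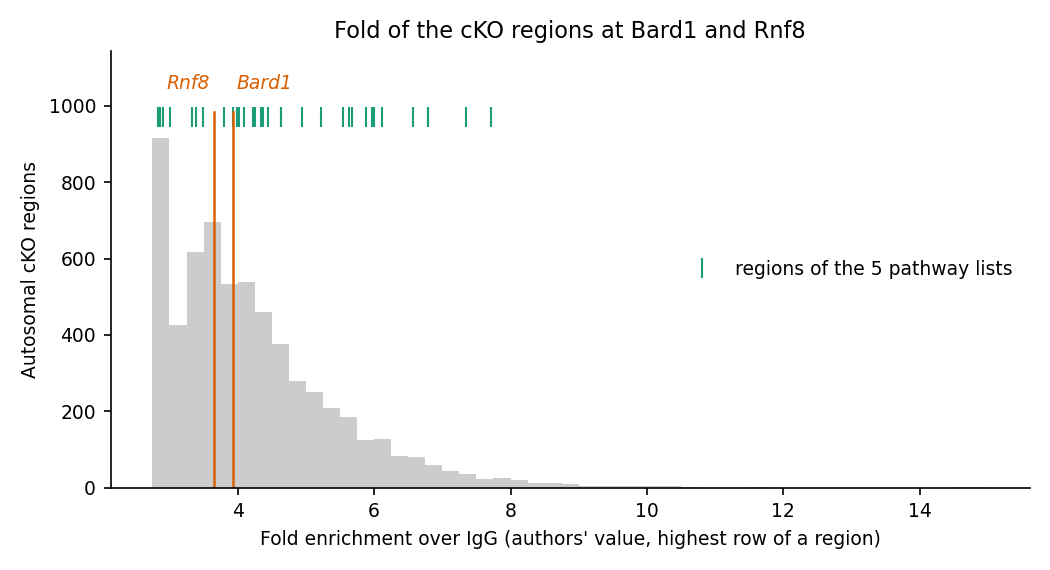
Fold enrichment over IgG (x axis) of autosomal Arid1a cKO regions, as a count per bin (grey bars), with regions of the 5 pathway lists as green ticks and the regions at Rnf8 (3.65) and Bard1 (3.94) as orange lines. Both lines fall within the bulk of the list, whose autosomal median was 3.95, and the ticks extend from 2.84 to 7.72.

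Duplicated rows were the rule in this list and not particular to the pair. Of the 6179 autosomal regions, 86.2% were formed by 2 or more rows. There were 5325 autosomal regions of 2 rows, and in 2273 of them the rows were identical, as at Bard1 and Rnf8. In the Arid1a WT list 0% of regions had 2 or more rows. The origin of the doubled rows was not tested, and a doubled row was not taken as a second measurement.

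Both regions were displaced downstream of the start more than most. Over 6340 pairs of an autosomal coding gene and a region at its start, the centre of the region lay a median of 39 bp downstream of the nearest transcript start, with quartiles at -60 and 143 bp, and 61.4% of the centres were downstream. The centre at Bard1 was further downstream than 92.4% of these pairs, and that at Rnf8 further than 88.4%. No test was made of 2 positions.

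**Figure D3:**
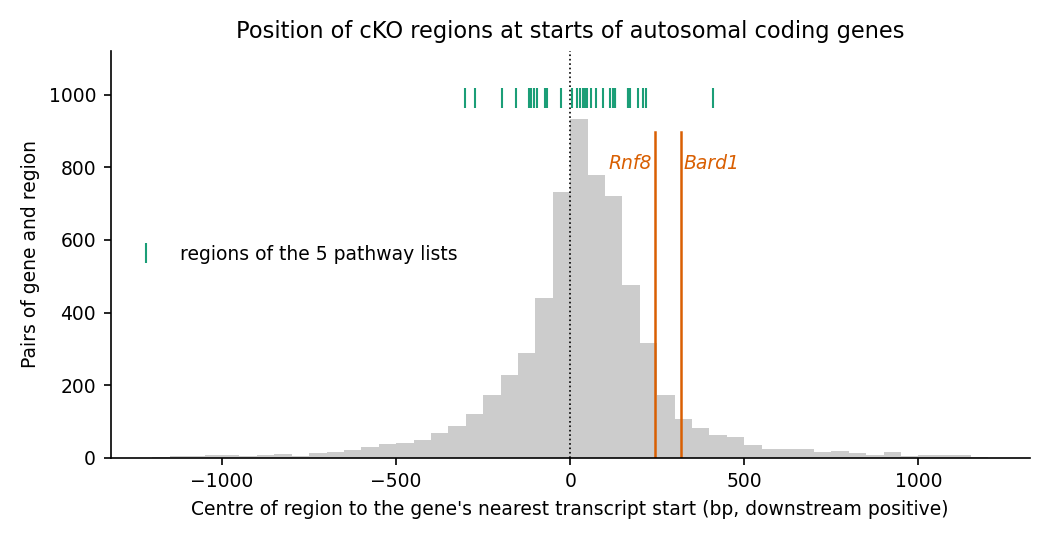
Position of Arid1a cKO regions at starts of autosomal coding genes, as the distance from the nearest transcript start to the region's centre (x axis, bp, downstream positive) against the number of gene and region pairs (y axis). The grey distribution has its median at 39 bp, green ticks mark regions of the 5 pathway lists, and the orange lines of Rnf8 (244 bp) and Bard1 (318 bp) lie on its right flank.

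The genes of the ATR kinase and its immediate partners had no region in either list. Atr, the kinase gene (ENSMUSG00000032409.15, chr9:95857597-95951781, plus strand), is 94185 bp long and has 13 transcripts. Its nearest Arid1a cKO region lay 3.07 kb beyond its 3′ end, at the start of Xrn1 and Gm16794, and was 206 bp wide with a fold of 3.62. Neighbours such as Xrn1 are named here and below because their starts lie at a gene's nearest region, and they were chosen after the values had been seen. Atrip, whose product tethers ATR to single-stranded DNA (ENSMUSG00000025646.9, chr9:109057933-109074124, minus strand), had its nearest region 20.7 kb upstream, at Plxnb1. That region was 1094 bp wide with a fold of 5.42, so a stronger region than that of Bard1 or Rnf8 lay within the same neighbourhood. Topbp1, the gene of the ATR activator (chr9:103305215-103350428, plus strand), was 103 kb from the nearest region, at Srprb (fold 3.66).

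H2afx and Mdc1 were likewise without a region. H2afx, the single-exon gene of histone H2AX (chr9:44334694-44336077, plus strand), is 1384 bp long and lay 143 kb from the nearest Arid1a cKO region, the greatest distance among the 10 genes. Mdc1, the gene of the protein that reads phosphorylated H2AX (chr17:35841515-35859670, plus strand), lay closest to a region without having one. This region began 1.47 kb beyond its 3′ end, at the start of Nrm, and was 223 bp wide with a fold of 3.38 and a -log10 q of 3.02. The rule has no window at the 3′ end of a gene. From the 5′ end of Mdc1 this region was 19622 bp away, whereas the near edges of the Bard1 and Rnf8 regions lie 154 and 299 bp from the 5′ end of their gene.

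On the axis and BRCA1 side, Bard1 had a region while Brca1 did not. Brca1 (chr11:101488764-101551955, minus strand) was 22.5 kb from its nearest region, at Rnd2 and Vat1 (fold 3.63). Hormad2, the gene of the axis protein required for ATR loading on unsynapsed axes (chr11:4345814-4441105, minus strand), was 78.7 kb from its nearest region. That region, at Lif, was 95 bp wide with a fold of 2.91, close to the lowest fold in the list of 2.80. Setdb1, the gene of the H3K9 methyltransferase (chr3:95323525-95357202, minus strand), lay with its 3′ end 7.67 kb from an 847 bp region at Cers2 and 6330562C20Rik, which had a fold of 3.38.

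The 8 genes without a region lay a median of 21.6 kb from the nearest Arid1a cKO region, and 37.5% of them (Atr, Mdc1 and Setdb1) were within 10 kb. Over the 14371 autosomal coding genes without a region, the median distance was 92.7 kb and 9.99% were within 10 kb. The distances were not compared among genes of like base composition at the start, and the difference was not tested. With a window of 10 kb around each transcript start in place of 1 kb, the count of the 10 genes with a region was still 2, since the regions near Atr, Mdc1 and Setdb1 lie beyond the 3′ ends. Over all autosomal coding genes, the share was 35.4% with this window, against 30.9% with 1 kb.

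In Arid1a WT, the nearest listed regions lay far from these genes. The distance was 1.62 Mb for Setdb1 and 6.50 Mb for H2afx. Atr, Topbp1 and Atrip share their nearest Arid1a WT region with H2afx on chromosome 9, at 45.0, 52.5 and 58.2 Mb. Bard1 was 118 Mb from the nearest. The list held no Arid1a WT region on chromosomes 11 and 17, where Brca1, Hormad2, Mdc1 and Rnf8 lie. At Bard1 and Rnf8 the genotypes thus differed in whether a region was listed, with 1 combined list on each side.

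The base composition around a gene's start went with the chance of a listed region. Composition was measured in the 500 bases on either side of the most upstream protein-coding transcript start, and a start was called CpG-rich at a G and C content of at least 50% and a CpG observed over expected ratio of at least 0.6. In the Arid1a cKO list, 55.8% of the 9621 genes with a CpG-rich start had a region, against 9.22% of the 11101 others. Starts of 9 of the 10 genes were CpG-rich, the exception being Hormad2 with a CpG ratio of 0.496, and 2 of these 9 had a region. Set beside genes of like composition, the share of the 10 genes was further below the background than beside all genes. The difference was not tested, because the 10 genes were picked with earlier results of these data known.

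The CpG ratio did not order the genes by whether they had a region. H2afx had the highest ratio (0.979), followed by Topbp1 (0.925), Atr (0.875), Rnf8 (0.864), Mdc1 (0.854), Setdb1 (0.838), Bard1 (0.761), Atrip and Brca1 (both 0.704) and Hormad2. The genes with a region thus held the fourth and the seventh place. Among all genes split into 5 equal groups by this ratio, the share with a region ran from 3.33% in the lowest to 64.1% in the highest. The highest group held 6 of the 10 genes, of which 1, Rnf8, had a region. The next group, with a share of 52.7%, held 3 genes, of which 1, Bard1, had a region. Hormad2 was in the middle group, where 26.3% of genes had one.

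**Figure D4:**
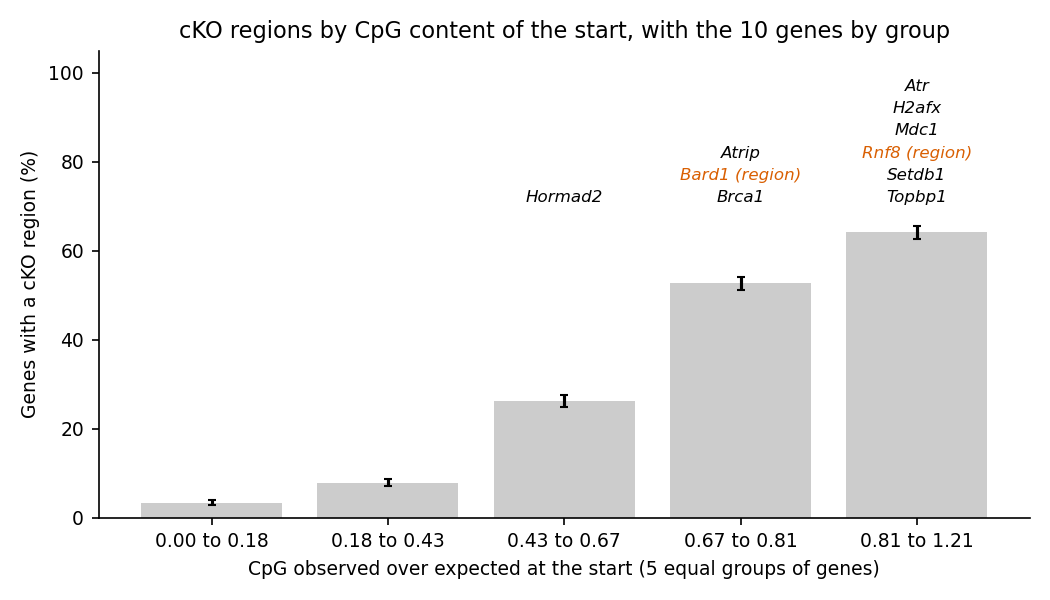
Share of autosomal coding genes with an Arid1a cKO region (y axis, %) in 5 equal groups of genes by the CpG observed over expected ratio at the start (x axis), with 95% Wilson intervals of counting error as bars. The share runs from 3.33 to 64.1%, and the 10 genes, written above their group with the 2 that have a region in orange, sit in the upper 3 groups.

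Starts that face a coding gene on the opposite strand had a region more often. Of 2638 autosomal coding genes with an opposite coding start within 1 kb, 61.1% had an Arid1a cKO region (95% Wilson interval 59.2 to 62.9%), against 26.6% of the other 18169 (25.9 to 27.2%). Pairs of such genes share regions, so the interval is too narrow. Among the 10 genes, Topbp1 starts 133 bases from 1300017J02Rik and Brca1 starts 194 bases from Nbr1, and neither had a region. The remaining 8 genes have no such neighbour.

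The 150 bases before the 5′ end of 4 of the genes are given to set the starts with a region (Bard1, Rnf8) beside starts without one (Atr, Brca1). They are from mm10, 5′ to 3′ on the gene's strand, and capitals mark matches of the motifs listed after them. The bases lie at chr1:71103147-71103296 for Bard1, chr17:29614640-29614789 for Rnf8, chr9:95857447-95857596 for Atr and chr11:101551956-101552105 for Brca1.
Bard1, minus strand: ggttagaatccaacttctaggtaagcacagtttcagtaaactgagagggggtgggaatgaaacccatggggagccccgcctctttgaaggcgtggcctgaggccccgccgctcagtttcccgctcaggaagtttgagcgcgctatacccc
Rnf8, plus strand: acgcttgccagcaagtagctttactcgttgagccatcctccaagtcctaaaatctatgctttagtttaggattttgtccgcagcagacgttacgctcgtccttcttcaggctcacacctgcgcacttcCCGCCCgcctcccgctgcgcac
Atr, plus strand: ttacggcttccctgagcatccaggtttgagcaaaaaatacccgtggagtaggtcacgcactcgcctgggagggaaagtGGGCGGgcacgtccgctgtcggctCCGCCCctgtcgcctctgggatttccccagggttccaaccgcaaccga
Brca1, minus strand: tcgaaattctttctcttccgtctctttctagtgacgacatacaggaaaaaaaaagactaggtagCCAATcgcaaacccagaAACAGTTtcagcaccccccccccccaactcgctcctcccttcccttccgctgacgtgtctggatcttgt
In these stretches G and C made up 57.3% at Bard1, 54.7% at Rnf8, 62% at Atr and 50% at Brca1. The Bard1 stretch had no match, that of Rnf8 had 1 GC box, that of Atr had 2, and that of Brca1 had a CCAAT box and a MYB core.

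Motifs were searched on both strands in the 300 bases of RefSeq promoters (GRCm38, 250 bases before to 50 after a start), which were found for 9 of the 10 genes, H2afx being the other. The GC box GGGCGG was in 8 of the 9 promoters, all but that of Brca1, and in 35.7% of all 32851 promoters. The CCAAT box was in 5 (Atrip, Brca1, Mdc1, Rnf8 and Setdb1) and in 37.4% of all, and the ETS core CCGGAAG was in 3 (Atr, Setdb1 and Topbp1) and in 8.86% of all. MYB cores, the type bound by the meiotic regulator MYBL1, were in Brca1 as AACNGTT (4.45% of all) and in Atrip and Mdc1 as CNGTTA (23.3%), patterns that can overlap in a site. The NRF1 motif GCGCATGC (2.71% of all), the CRE TGACGTCA (1.79%), the E-box CACGTG (7.15%) and the TATA box TATAAA (13.6%) had no match in the 9 promoters. For H2afx the 150 bases before the gene were searched in place of a RefSeq promoter, and they held 1 TATA box and 1 CCAAT box. Bard1 and Rnf8 shared the GC box with 6 genes that had no region, so no motif of this set separated the pair from the others. A match is a description of the letters and not a bound site.

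The other genes of the pathway were read by the same rule from 5 lists with 49 autosomal genes. In the Arid1a cKO list 34 of the 49 had a region, a share of 69.4% (95% Wilson interval 55.5 to 80.5%) against the background of 30.9%. A region at a start was present for 31, where the background was 29.5%. Of 41 genes with a CpG-rich start 32 had a region, where the share over all such genes was 55.8%. Of the 8 others 2 had one, where the share over all genes without a CpG-rich start was 9.22%. In Arid1a WT, 0 of the 49 had one. Their 35 regions had a median fold of 4.36 and a median width of 464 bp, and in 25 of the genes the fold was above that of Bard1, the higher of the pair. For Bard1 and Rnf8, the median of the 2 regions was 3.79 in fold and 288 bp in width. The regions of the pair were thus lower and narrower than the middle of the regions in the wider pathway. The lists were chosen with earlier results known, and the difference from the 10 genes was not tested.

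**Figure D5:**
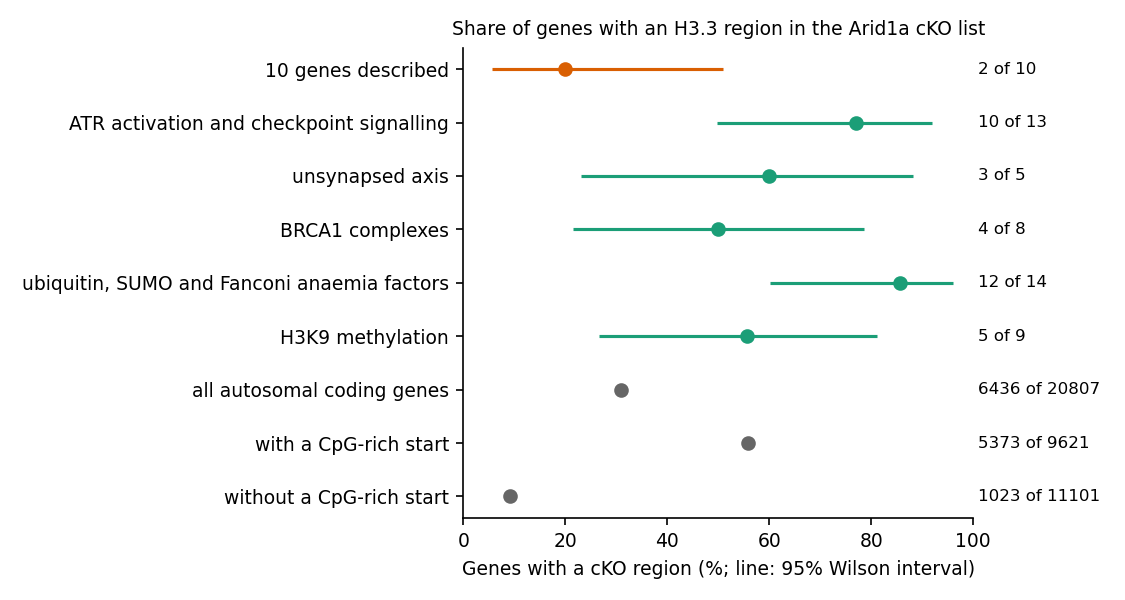
Share of genes with an Arid1a cKO region (x axis, %) for the 10 genes (orange), each pathway list (green) and autosomal coding genes (grey), with 95% Wilson intervals of counting error as lines and counts at the right. The 10 genes are at 20% and the 5 lists lie between 50 and 85.7%.

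The counts per list below are to be read beside the share over all autosomal coding genes, 30.9%. For those with a CpG-rich start the share was 55.8%. Around ATR itself, 10 of 13 genes of activation and checkpoint signalling had a region, and 10 of the 12 with a CpG-rich start. Each region lay at a start, with folds from 2.86 to 6.78. The highest was that of Rad1, a subunit of the clamp that brings TOPBP1 to ATR. Genes named from here on that are not the highest of their list were chosen after the values had been seen. The clamp genes Hus1 (fold 5.63) and Rad9b (4.64), the clamp loader gene Rad17 (3.94) and Etaa1 (4.35), which encodes a further activator of ATR, also had regions. All genes of the single-stranded DNA binding complex RPA had one too, with folds of 3.00 for Rpa1, 4.63 for Rpa2 and 4.09 for Rpa3. Rad9a, Hus1b and Chek1 had none. The kinase gene Atm had a region with a fold of 3.99, shared with the divergent gene Npat, whereas Atr, Atrip and Topbp1 had none. Over the 5 pathway lists, 15 genes face a coding gene on the opposite strand and 13 of them had a region, where the share over all such genes was 61.1%. Palb2 and Cbx5 were the others, without a region as were Topbp1 and Brca1. The 13 include Ehmt2 and Trim28, whose regions were not at the start that faces the opposite gene. Their regions began 15234 bp (Ehmt2) and at least 10416 bp (Trim28) into the gene.

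Among genes of the unsynapsed axis, 3 of 5 had a region, and 3 of the 4 with a CpG-rich start. Sycp2, an axis component, had the highest fold at 6.56 and Sycp3 the lowest at 4.94, with Trip13, whose product removes HORMADs on synapsis, between them. Hormad1 and Ccdc36 were without one, as was Hormad2. Among partners of BRCA1, 4 of 8 had a region, and 3 of the 6 with a CpG-rich start, which is near the share of 55.8% over all such genes. The median fold was 6.33 and the highest 7.35, at Abraxas1, which encodes the scaffold of a BRCA1 complex. Rbbp8 (6.79), Brip1 (5.88) and Babam2 (4.25) had the others. Brca2, Palb2, Uimc1 and Babam1 had none, as Brca1 itself. Each of the 4 folds exceeded that of Bard1 (3.94).

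Downstream of RNF8, 12 of 14 ubiquitin, SUMO and Fanconi anaemia genes had a region, including all 11 with a CpG-rich start. For Rad18 and Pias4, which are among these 11, the region was not at a start. It began 43326 bp (Rad18) and 13434 bp (Pias4) into the gene. Of the 12 regions 10 lay at a start, and the folds of the 12 ran from 2.84 to 7.72. Fanca had the highest. Rnf168, which encodes the ligase that follows RNF8, had a fold of 4.02, and Ube2n, the gene of the conjugating enzyme that works with RNF8, had 4.36. Both were above Rnf8 (3.65). Fanci and Usp7 had none. In the H3K9 methylation group 5 of 9 genes had a region, and 5 of the 8 with a CpG-rich start, which is near the share of 55.8% over all such genes. In 4 of the genes a region lay at a start, and the folds ran from 2.91 to 6.12. The highest was at Cbx1, which encodes the heterochromatin protein HP1 beta. Trim28, a partner of SETDB1, had a fold of 5.54 at a start, while Setdb1 and Atf7ip, whose product stabilises SETDB1, had none.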

How the data were processed

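Per the study's methods and the labels, reads were trimmed (Trim Galore), aligned to mm10 (Bowtie2) and cleared of PCR duplicates (Picard), and the authors called broad peaks with MACS2 in each H3.3 library against an IgG control from pachytene-enriched cells of juvenile testes, made for another study. The control is named as rabbit IgG in the deposited lists, and the H3.3 antibody is a mouse monoclonal. Replicate peaks were overlapped into 1 list per genotype. In each deposited row, the fold enrichment is a ratio to the IgG background, and the -log10 p and -log10 q values are those of the peak caller as the authors deposited them. Whether libraries came from separate cell isolations is not given in the sources used here.

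Rows overlapping by at least 1 bp were merged into regions, and a region takes the highest fold among its rows. Regions were assigned to genes by any overlap with 1 kb on either side of a transcript start or with the gene, using 141730 transcripts of GENCODE M21 on 21 chromosomes. Of the autosomal coding genes, 85 had no composition value because they lack a protein-coding transcript. The sequence of the Rnf8 region is not reported here. Ranks by fold give ties the same rank. Intervals are 95% Wilson intervals and cover counting error only. No test was run.

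The 10 genes and the pathway lists were chosen with earlier results of these data known. Named genes were the 10, the gene of highest fold in each pathway list, any pathway gene with an Arid1a WT region, and genes that start within 1 kb of a region of the 10. Others are said to have been chosen after seeing values. The assignment was checked on simulated regions. Alternatives covered -log10 q thresholds, support by rows, the transcripts used and the window. Work was done in Python 3.11.15 with pandas 2.3.3, numpy 2.4.6, scipy 1.17.1, pysam 0.24.0, matplotlib 3.10.9 and samtools 1.23.1.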

Additional observations from a re-analysis of the deposited data

How the results depend on the processing

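Each result was recomputed under other settings, 43 in all over 8 results. Of these, 26 were labelled as within set limits of the reported value and 17 as moved. A label within limits is not always a small change, since the pathway count of 27 against 34 has it. Counts, shares and a median have no direction, so none could reverse. The median fold of the Bard1 and Rnf8 regions could not move. Both regions have identical rows, lie at a start and pass a -log10 q of 3. With rows of a -log10 q of at least 3, the share of autosomal coding genes with an Arid1a cKO region was 21.6%, and 20.8% for regions at a start. Both counts of the 10 genes were still 2 there, close to these shares, and the pathway count was 27. At a -log10 q of at least 5 these shares were 9.88% and 9.56%, the pathway count was 16, and both counts of the 10 genes (any region, region at a start) were 0, since Bard1 and Rnf8 have lower values. With regions of 2 or more rows, the shares were 28.1% and 27.1%. With a narrow promoter (1 kb before a start to 100 bp after it, by region centre), both shares were 21.1%, both counts of the 10 genes were 1 (Rnf8, through a start further into the gene) and the pathway count was 21. Further alternatives were chosen after seeing the data. The share of coding genes was 35.4% with a window of 10 kb, 55.8% for CpG-rich starts and 37.1% for genes at least 10 kb long. The cause of these moves was not tested.

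No paired analysis was possible because the peaks of all libraries of a genotype stand in 1 list, and the replicate numbers in the labels match no value. Nor was there a library to leave out. Depth is unknown, and H3.3 under the peak caller's threshold was not measured.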
